A study of Rattus norvegicus with 31 samples.

Results

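The late phase of the response of tail motor neurons to spinal transection was examined by setting the 8 animals taken 60 days after injury (Spi-60) against the 8 taken 21 days after injury (Spi-21), 16 of the 31 arrays of the series. The 2 groups were chosen by their labels, no expression value entered the choice, and all 12913 probe sets other than the Affymetrix controls were compared. All animals were adult male Wistar rats with the sacral cord cut at S2 and a short piece of it removed, so that the tail alone lost its descending input, and every array held amplified RNA of laser-microdissected, Fluoro-Gold labelled motor neurons from below the lesion (S3 and S4) in 1 rat. The methods of the study trace both groups to 1 earlier study, whereas the Control (n = 4), Spi-2 (n = 6) and Spi-7 (n = 5) arrays were made for the later one. The uninjured animals were therefore neither from the same study nor kept for the same time as the 2 late groups, and 39 more days after injury and 39 more days of age cannot be told apart here. Each array also pools the neurons of a whole animal, so that fewer cells with an RNA and less of it per cell cannot be told apart.

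Motor neurons below a transection first lose much of their excitability and later regain it in an exaggerated form, with long-lasting muscle contractions in reply to brief stimuli. Voltage-gated channels that carry persistent inward currents, receptors for serotonin and noradrenaline that set the gain of these currents, and the inhibitory receptors and chloride transporters that oppose them are the molecules most often linked to this hyperexcitable state. The comparison of the later with the earlier late time point asks how far the RNA of these and all other genes still moves once the state is present. Levels are given in log2 units as the RMA method summarises a probe set, so that a difference of 1 stands for a 2-fold change in signal. Every difference below is the Spi-60 mean minus the Spi-21 mean, with the SE of the limma fit or its 95% interval.

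The motor neuron label was checked against 10 of its markers. Prph, the intermediate filament peripherin, lay at 12.88 ± 0.22 (log2, SD, n = 8) at day 21 and 12.90 ± 0.20 (n = 8) at day 60, and Nefl, the light neurofilament, at 13.73 ± 0.13 and 13.73 ± 0.16. Filaments of this kind are not particular to motor neurons. The high-affinity choline transporter Slc5a7 stood at 10.43 ± 0.63 and 10.48 ± 0.46, the vesicular acetylcholine transporter Slc18a3 at 7.27 ± 0.55 and 7.92 ± 0.43, and the LIM-homeodomain factors Isl1 at 5.77 ± 0.17 and 5.67 ± 0.14 and Isl2 at 5.65 ± 0.27 and 5.65 ± 0.15. Isl1 and Isl2 lay below the medians of the arrays, which averaged 5.99 at day 21 and 6.0 at day 60. Whether these 2 factors were detected was not tested, so that they lend the label no support. Chat and Mnx1 were not analysed here. Among the 10 markers none was called and 2 were higher at an unadjusted p under 0.05, beside 5.82% of all probe sets. The median difference of the 10 was 0.01, equal to that of all probe sets. Markers of glia were measured at high values as well, with day-21 and day-60 means of 12.06 and 12.39 for Aldoc and 10.91 and 11.16 for Gja1, both of astrocytes, and of 10.86 and 11.25 for Cldn11, of oligodendrocytes. Levels of different probe sets are not on 1 scale, so that these values give no share of glial RNA.

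Before any gene is compared, the arrays themselves differed between the groups in 2 respects. The Affymetrix chip carries control sets for the 3′ and the 5′ end of Gapdh, and the 3′ set exceeds the 5′ set more the shorter the amplified RNA is. In Spi-21 this difference was lowest at 1.13, with a median of 2.21 and a highest value of 3.54, and in Spi-60 it ran from 2.99 over 3.53 to 3.97. The day-21 animals fell into replicates 1 to 4, at 2.76 to 3.54, and replicates 5 to 8, at 1.13 to 1.66, below every Spi-60 array. The means, 3.49 ± 0.35 (SD, n = 8) and 2.29 ± 0.94 (n = 8), differed by 1.21 (exact permutation test over 16 arrays, two-sided, p = 0.00451), and the same measure for beta-actin by 0.09 (exact permutation p = 0.565). The beta-actin measure did not split the day-21 animals, at 2.87 to 3.72 in replicates 1 to 4 and 2.95 to 3.70 in replicates 5 to 8. The second respect was the likeness of the animals. The correlation between 2 arrays of Spi-60 lay between 0.956 and 0.988 and between 2 arrays of Spi-21 between 0.926 and 0.977, and the SD over animals was larger at day 21 for 71.1% of probe sets (58.6% without replicates 1 to 3, 58.3% without replicates 5 to 8). Its median was 0.261 at day 21 and 0.200 at day 60. With the Gapdh difference as a covariate or without Spi-21 replicates 5 to 8, 12 of the 29 probe sets with the leading differences had a difference smaller by over 1.5 times and none a larger one by that much, and these values are given below. Of the day-21 arrays, only replicates 1 (3.29) and 2 (3.54) lay within the Spi-60 range of the Gapdh difference. The covariate is thus partly confounded with the day. Both fits turn on the same split of the day-21 arrays, so that they are not independent checks.

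**Figure D1:**
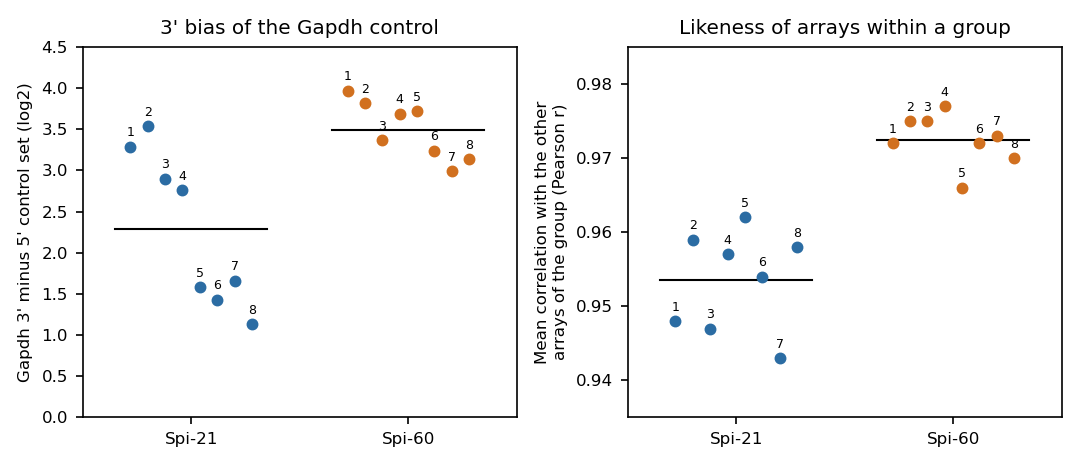
Left, difference between the 3′ and 5′ Gapdh control sets (log2) in each array, numbered by replicate; right, mean Pearson correlation of each array with the other 7 of its group over 12913 probe sets, on an axis that does not start at 0. Black lines are group means (n = 8); Spi-21 replicates 5 to 8 sit at 1.13 to 1.66 on the left, and all Spi-60 arrays correlate at 0.966 or more with their group.

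Few differences between day 21 and day 60 were detectable in the RNA profile of the motor neurons. Of 12913 probe sets, 1 passed an adjusted p of 0.05 (0.00774%), that of Nop58, which fell, and none passed in the other direction. Without adjustment, 1340 probe sets (10.4%) had a p under 0.05, 751 (5.82%) higher and 589 (4.56%) lower in Spi-60. The 8 values of one group lay wholly apart from the 8 of the other for 10 probe sets (0.0774%), 6 lower (0.0465%) and 4 higher (0.031%) at day 60. The differences were centred on 0, with a median of 0.0056 and quartiles of -0.09 and 0.12. Of all probe sets, 51.6% had a positive difference, and 3 differed by more than 1 in size. The 95% interval of the difference, whose half-width had a median of 0.249, lay inside -1 to 1 for 99.0% of probe sets and inside -0.5 to 0.5 for 77.5% (97.9% and 69.9% without Spi-21 replicates 1 to 3). In this fit, which held no covariate, a change in signal of more than 2-fold is thus outside the interval for 12785 of the 12913 probe sets taken one at a time. That does not carry over to every fit. With the Gapdh covariate Tceal1 differed by 1.33 and Ano3 by 1.31, against 0.35 and 0.21 without it.

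**Figure D2:**
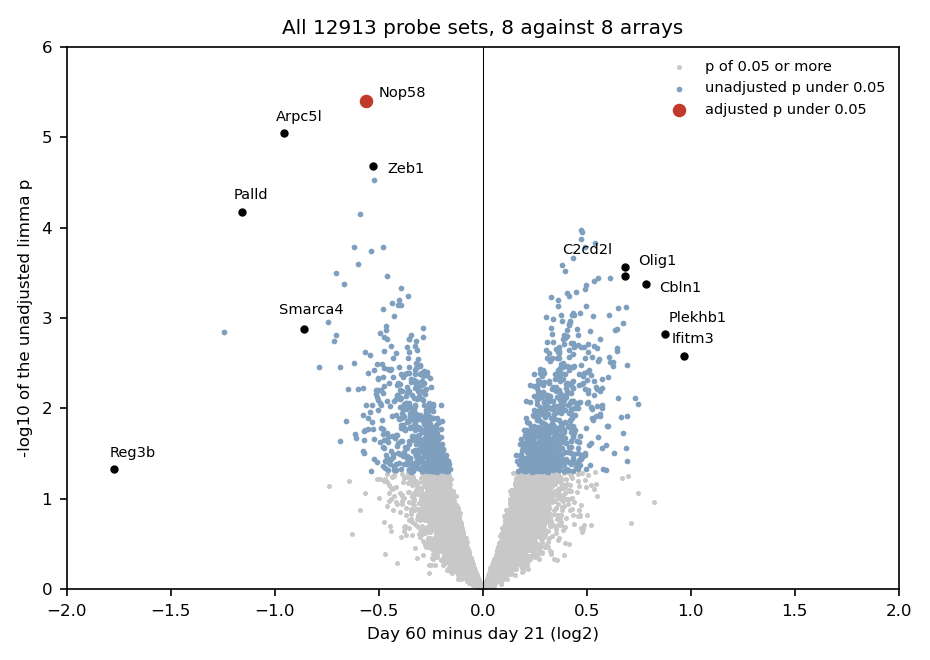
Difference between Spi-60 and Spi-21 (log2, horizontal) against -log10 of the unadjusted limma p (vertical) for all 12913 probe sets; red marks the probe set with an adjusted p under 0.05 and black 10 others that carry a label. Nop58 stands highest at a difference of -0.56, and Reg3b lies farthest to the left at -1.77 with an unadjusted p of 0.0471.

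The gene that fell, Nop58, encodes a core protein of the box C/D small nucleolar particles, which guide the methylation of ribosomal RNA. Its lowest, median and highest levels were 9.09, 9.36 and 9.58 in Spi-21 and 8.54, 8.82 and 8.97 in Spi-60. Every day-60 animal was below every day-21 animal. The difference was -0.56 ± 0.09 (SE), with an interval of -0.74 to -0.38 and an adjusted p of 0.04999 from limma, just under the threshold. It lay between -0.60 and -0.52 when any 1 of the 16 arrays was left out, and the adjusted p ran from 0.00717 to 1.00 over 27 alternative fits, of which 7 called it. With the Gapdh difference as a covariate the value was -0.46 (adjusted p = 0.0984), and without Spi-21 replicates 1 to 3 it was -0.58 (adjusted p = 0.0360).

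Other genes of ribosome and RNA metabolism did not pass the adjusted test. Dnajc2, a chaperone that binds the ribosome, had means of 8.15 ± 0.26 (SD, n = 8) and 7.62 ± 0.21 (n = 8), a difference of -0.54 ± 0.12 with an adjusted limma p of 0.168, and its groups did not overlap. Snrpf, a core protein of the spliceosomal particles, differed by -0.40 (adjusted p = 0.222). Snrnp48, of the minor spliceosome, differed by -0.69 (adjusted p = 0.275), Son, a splicing cofactor of nuclear speckles, by -0.48 (adjusted p = 0.227) and Thoc2, of the complex that couples transcription to mRNA export, by -0.65 (adjusted p = 0.290). A second probe set of Son differed by 0.30 with an interval of -0.20 to 0.80, and the 2 others of Thoc2 by -0.25 and -0.10. With the covariate the first probe set of Thoc2 differed by -0.18 and the second of Son by 0.90. Of 54 splicing factors measured, 7 were lower and 2 higher at an unadjusted p under 0.05 (4.56% and 5.82% of all probe sets), and their median difference was -0.02. The counts were 4 lower and 6 higher with the covariate, 3 and 2 without Spi-21 replicates 5 to 8, and 12 and 5 without replicates 1 to 3. The splicing factor U2af2 was among the 2 higher, at 0.38 (adjusted p = 0.275), and was at 0.19 with the covariate.

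Ribosomal proteins showed small differences. Of 41 cytosolic ones, 5 were lower and none higher at an unadjusted p under 0.05, with a median of -0.06, beside 4.56% lower among all probe sets. The median was 0.00 with the covariate (2 lower), 0.01 without Spi-21 replicates 5 to 8 (2 lower) and -0.18 without replicates 1 to 3 (13 lower). By rule, Rpl21 (-0.32, adjusted p = 0.275), Rpl22 (-0.38, adjusted p = 0.376) and Rpl35a (-0.26, adjusted p = 0.353) were named, which were at -0.21, -0.08 and -0.06 with the covariate. All 41 intervals lay inside -1 to 1. Of 71 mitochondrial ribosomal proteins 18 had a positive difference, beside 51.6% of all probe sets, and the median was -0.07. That median was 0.09 with the Gapdh covariate and 0.11 without Spi-21 replicates 5 to 8, so that its sign was not the same across these fits.

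The next probe sets in order of p also had negative differences, none of which passed the adjusted test. Arpc5l, a subunit of the Arp2/3 complex that nucleates branched actin, ran from 8.24 over 9.10 to 9.40 in Spi-21 and from 7.47 over 8.09 to 8.42 in Spi-60. The groups overlapped through 1 day-21 animal, replicate 4. The difference was -0.96 ± 0.16 (adjusted p = 0.0587 by limma), and -0.83 with the covariate (adjusted p = 0.106). Without replicate 4 the adjusted p was 0.00376, but that animal was singled out by its value. No other fit that left out a single array called the gene. A second probe set of the gene differed by -0.20 with an interval of -0.57 to 0.17. Palld, a scaffold of actin bundles, had the largest difference among the named probe sets with p under 0.01, at -1.16 ± 0.23 (adjusted p = 0.150). Its levels were 6.36, 7.06 and 8.20 (lowest, median and highest) in Spi-21 and 5.61, 6.17 and 6.67 in Spi-60. The day-21 animals with the highest Palld were replicates 5, 6 and 7, which also had a low Gapdh difference, and the difference was -0.71 both without replicates 5 to 8 and with the covariate.

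Zeb1, a zinc-finger repressor that binds E-boxes, is among the transcription factors that the study linked to its expression profiles. Its level was 9.04 to 9.68 (median 9.36) in the day-21 animals and 8.64 to 8.98 (median 8.85) in the day-60 animals. The groups did not overlap, and the difference of -0.53 ± 0.09 had an adjusted p of 0.0897 (limma). The difference was -0.49 without Spi-21 replicates 1 to 3 (adjusted p = 0.0425), -0.49 without replicates 5 to 8 and -0.51 with the covariate. Nfyc, a subunit of the CCAAT-binding factor NF-Y, went the other way without overlap, with day-21 levels of 6.51 to 7.27 and day-60 levels of 7.36 to 7.75 (0.49 ± 0.11, adjusted p = 0.163), and Dmrt1 differed by -0.32 (adjusted p = 0.251). Of the 31 transcription factors measured from that list, which the study chose on these same arrays, none passed the adjusted test, and the median was 0.03. At an unadjusted p under 0.05, 4 were higher and 3 lower, beside 5.82% and 4.56% of all probe sets. Smarca4 is the ATPase of the SWI/SNF chromatin remodelling complex. It differed by -0.86 in 1 probe set (limma adjusted p = 0.247) and by 0.12 and -0.02 in its other 2. The first difference was larger in size with the covariate, at -1.28, and without Spi-21 replicates 5 to 8, at -1.12. It was smaller without replicates 1 to 3, at -0.56.

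Among genes of membrane lipids and protein turnover, Pla2g6, the calcium-independent phospholipase A2, differed by -0.52 ± 0.10 (adjusted p = 0.0972), with 7 of 8 day-60 animals below every day-21 animal. Its other 2 probe sets differed by 0.09 and -0.04. Zranb1, a deubiquitinase, did not overlap between the groups, with day-21 levels of 5.92 to 6.67 and day-60 levels of 5.51 to 5.77 (-0.59 ± 0.12, adjusted p = 0.150), while its second probe set differed by -0.08. Atp6v1g1, a subunit of the proton pump of lysosomes and synaptic vesicles, differed by -0.62 ± 0.13 (adjusted p = 0.163). Fbxo9, a substrate receptor of a ubiquitin ligase, differed by -0.66 in 1 probe set (adjusted p = 0.198) and by 0.00 in its other, which had an interval of -0.25 to 0.25. The remaining named probe sets on this side were Hypk (-0.74), Bend5 (-0.72), Aarsd1 (-0.71), Prepl (-0.71) and Mindy3 (-0.62), with adjusted p of 0.196 to 0.275. Bend5 (4.95 to 5.18 and 5.25 to 6.24) and Prepl (7.19 to 7.81 and 7.88 to 8.54) did not overlap between day-21 replicates 1 to 4 and 5 to 8. Without replicates 5 to 8 the differences were -0.42 for Hypk, -0.36 for Bend5, -0.56 for Aarsd1, -0.33 for Prepl and -0.46 for Mindy3. With the covariate they were -0.35, -0.41, -0.58, -0.24 and -0.33 in the same order, and that of Thoc2 without replicates 5 to 8 was -0.27. Where a second probe set of a gene existed, it repeated none of these differences in full.

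**Figure D3:**
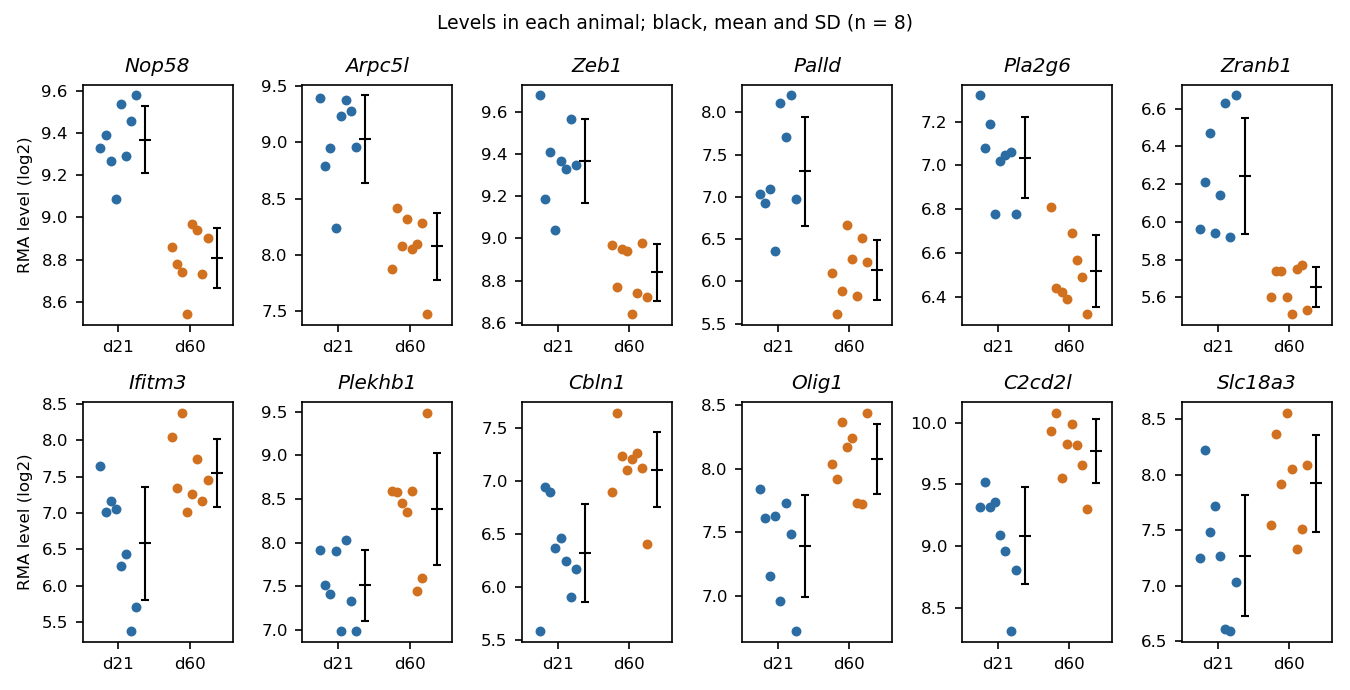
RMA level (log2) in each of the 8 Spi-21 (d21, blue) and 8 Spi-60 (d60, orange) animals for 12 named probe sets, each panel on its own axis that does not start at 0, with replicates 1 to 8 from left to right; black bars are the mean and SD. Nop58, Zeb1 and Zranb1 in the upper row do not overlap between the groups, whereas all 6 genes of the lower row do.

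Higher values in Spi-60 were found for probe sets of diverse genes, none of which passed the adjusted test. Ifitm3, an interferon-induced antiviral membrane protein, had the largest positive difference, 0.97 ± 0.28 (adjusted p = 0.264), with levels of 5.37, 6.73 and 7.65 (lowest, median and highest) in Spi-21 and 7.01, 7.40 and 8.38 in Spi-60. Its day-21 levels split in the same way as the Gapdh difference, at 7.01 to 7.65 in replicates 1 to 4 and 5.37 to 6.44 in replicates 5 to 8. The difference was accordingly 0.33 without replicates 5 to 8, 0.21 with the covariate and 1.39 without replicates 1 to 3 (adjusted p = 0.0392). What part, if any, RNA length has in this result was not tested. Ppp2r1a, the scaffold of protein phosphatase 2A, showed the same split, at 6.55 to 6.74 in replicates 1 to 4 and 5.53 to 6.01 in replicates 5 to 8, and differed by 0.67 over all animals (adjusted p = 0.247) by 0.13 with the covariate and by 0.22 without replicates 5 to 8. C2cd2l, a lipid carrier at contacts of endoplasmic reticulum and plasma membrane, split likewise (9.32 to 9.52 and 8.31 to 9.09) and differed by 0.68 (adjusted p = 0.193), by 0.26 with the covariate, by 0.39 without replicates 5 to 8 and by 0.86 without replicates 1 to 3 (adjusted p = 0.0392). Over all probe sets, replicates 1 to 4 and 5 to 8 of Spi-21 did not overlap in 1254 (9.71%), against 5 of the 29 probe sets with the leading differences.

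Cbln1, a secreted organiser of synapses, was represented by 2 probe sets that differed by 0.79 ± 0.19 and 0.75 ± 0.26 (adjusted p = 0.198 and 0.320). In the first, 6 of 8 day-60 animals lay above every day-21 animal, and the difference was 0.66 without Spi-21 replicates 5 to 8 and 0.88 without replicates 1 to 3 (adjusted p = 0.0371). The second was at 0.40 without replicates 5 to 8 and 0.31 with the covariate. Ywhaz, a 14-3-3 adaptor protein, differed by 0.65 in 1 probe set (adjusted p = 0.226) and by -0.09 in its other. Gabarap, which takes part in autophagy and in the traffic of GABA-A receptors, differed by 0.65 (adjusted p = 0.247) and by 0.10 in its second probe set. Plekhb1 (0.88), Igfbp7 (0.73) and Tmem98 (0.69) completed the named probe sets, with adjusted p of 0.225 to 0.311. Slc18a3, the vesicular acetylcholine transporter and a motor neuron marker, ran from 6.59 over 7.26 to 8.22 in Spi-21 and from 7.33 over 7.98 to 8.56 in Spi-60. The groups overlapped broadly and the difference of 0.65 (adjusted p = 0.311) was 0.10 with the covariate and 0.25 without replicates 5 to 8.

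Genes of neuronal excitability, the subject of the study, showed no called difference between the late time points. The study listed 83 probe sets of this kind after finding them regulated on these same arrays, and they are not an independent sample. None was called (lowest adjusted p = 0.247), 9 (10.8%, beside 5.82% of all probe sets) were higher and 5 (6.02%, beside 4.56%) lower at an unadjusted p under 0.05, and their median difference was 0.01. The interval lay inside -1 to 1 for 81 of the 83 and inside -0.5 to 0.5 for 50. Gabarap and Slc18a3 were the 2 whose interval reached beyond 1.

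**Figure D4:**
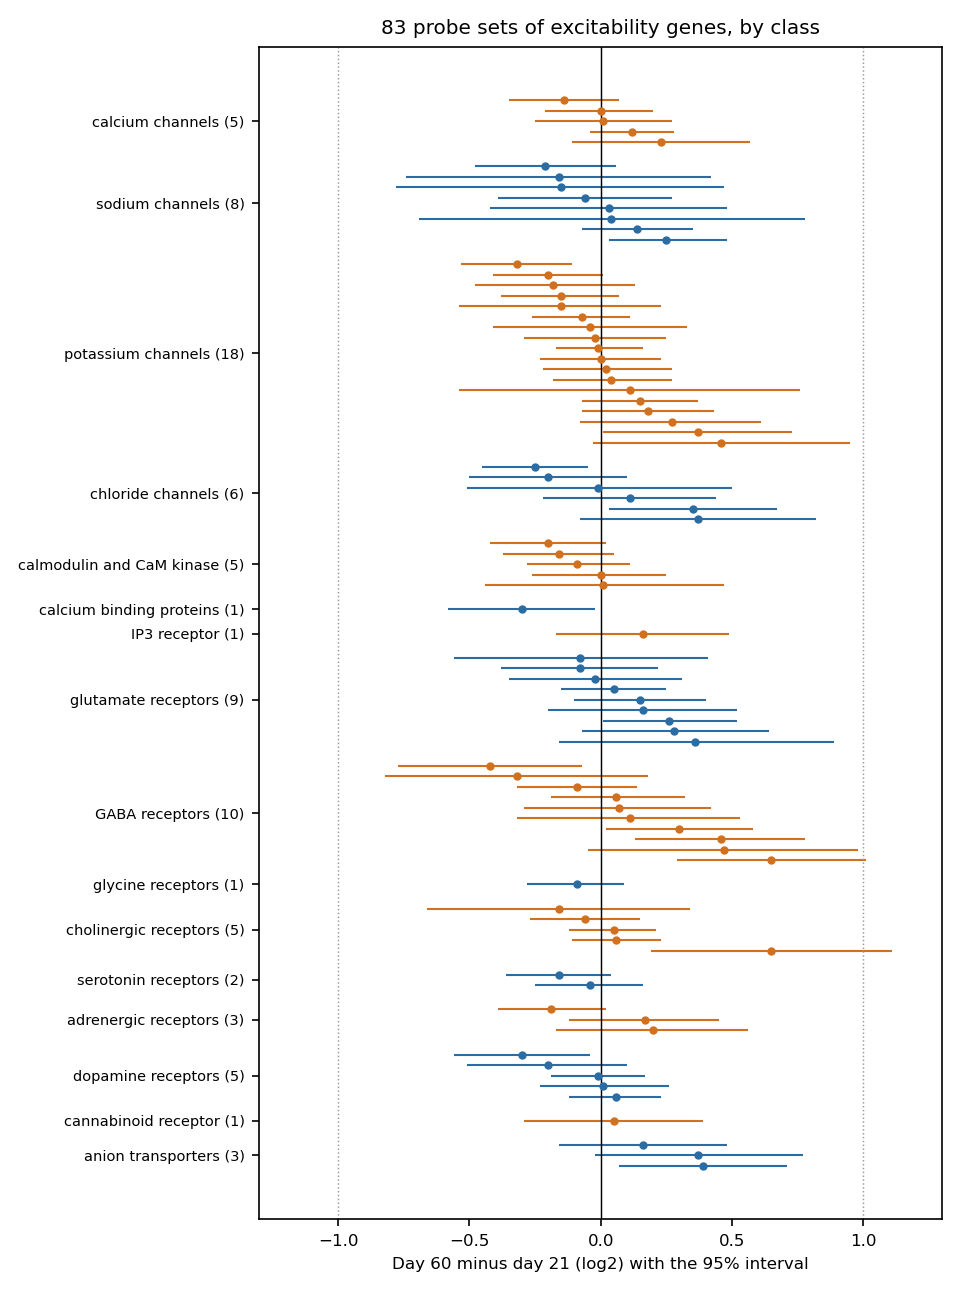
Difference between Spi-60 and Spi-21 (log2) with its 95% interval for each of the 83 excitability probe sets, sorted within classes whose size is in brackets; colours alternate between classes and dotted lines mark -1 and 1. All but 2 of the intervals stay inside the dotted lines.

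Among voltage-gated channels, the values were small on both sides of 0. The 17 calcium channel genes measured held no member with an unadjusted p under 0.05 and had a median of 0.00 and a range of -0.22 to 0.23. Cacna1h, a low-threshold pore subunit, stood at 6.91 ± 0.23 and 7.15 ± 0.44 (0.23, adjusted p = 0.646) and was at -0.05 with the covariate. The 9 sodium channel genes likewise held none, with a range of -0.15 to 0.14, and Scn4b, an auxiliary subunit, differed by 0.10 (adjusted p = 0.791). Of 64 potassium channel genes 2 were higher and 1 lower at an unadjusted p under 0.05, the median was 0.01 and every interval lay inside -1 to 1. Kcnd1, an A-type channel, differed by 0.33 (adjusted p = 0.443), Kcna3, a delayed rectifier, by -0.27 (adjusted p = 0.367), and Kcnc2, a fast rectifier of the Kv3 group, by -0.32 in 1 probe set (adjusted p = 0.284) and by 0.11 in its second.

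Receptors that set motor neuron gain had small differences. The 13 serotonin receptor genes, all with intervals inside -0.5 to 0.5, had a median of -0.04 and a range of -0.16 to 0.06, with no unadjusted p under 0.05. Htr7 differed by -0.16 (adjusted p = 0.587) and Htr2b, a member of the group coupled to persistent inward currents, stood at 4.84 ± 0.15 and 4.80 ± 0.21 with an interval of -0.25 to 0.16. The 11 adrenergic and dopamine receptor genes ranged from -0.20 to 0.17, and Adra1a differed by -0.19 (adjusted p = 0.522). Of 18 acetylcholine receptor genes, Chrm1 alone had an unadjusted p under 0.05 (0.28, adjusted p = 0.462). The mean level over the list was at most 5.57 in any animal for serotonin, 5.83 for adrenergic and dopamine and 5.57 for acetylcholine receptors. The medians of the arrays were higher, at 5.95 to 6.04. Whether the RNAs of these 3 lists were detected was not tested, so that their small differences do not show stable RNA. Of the 21 ionotropic glutamate receptor genes, Grin1, the obligatory NMDA receptor subunit, differed by 0.26 (adjusted p = 0.466) and was at 0.01 with the covariate, and Grik1, a kainate receptor subunit, by -0.28 (adjusted p = 0.365).

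On the inhibitory side, the 16 GABA receptor genes had a median of 0.03. Gabrd, the subunit of receptors outside the synapse, lay at 6.75 ± 0.09 and 6.96 ± 0.09 (0.21, adjusted p = 0.315) and Gabbr2, of the GABA-B receptor, at 7.55 ± 0.25 and 7.85 ± 0.30 (0.30, adjusted p = 0.458). The 3 genes measured for glycine receptors and their anchor gephyrin ranged from -0.12 to 0.01. The mean level over the list was at most 5.9 in any animal for the GABA and 5.42 for the glycine list, also below the array medians. Whether these RNAs were detected was not tested. Among chloride transporters, Slc12a2, the importer NKCC1, differed by 0.37 with an interval of -0.02 to 0.77 (adjusted p = 0.502) and by 0.10 without Spi-21 replicates 5 to 8. Slc4a2, an anion exchanger, differed by 0.39 (adjusted p = 0.389), by 0.62 without Spi-21 replicates 1 to 3 (adjusted p = 0.0393) and by 0.00 with the covariate.

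Calcium signalling and transmitter release held no called gene either. Of 27 genes for calmodulin, its kinases and calcium sensors, 5 were higher and 1 lower at an unadjusted p under 0.05, beside 5.82% and 4.56% of all probe sets. The median of these genes was 0.03, and it was -0.07 with the covariate. Hpcal1, a neuronal calcium sensor, differed by 0.61 (adjusted p = 0.275) and by 0.10 with the covariate, and Atp2a2, the calcium pump of the endoplasmic reticulum, by 0.33 (adjusted p = 0.405). Of 38 genes of synaptic vesicles and release, Cplx1, complexin, differed by 0.31 and Snap29 by -0.44 (adjusted p = 0.464 and 0.462), the latter by -0.22 with the covariate. Of 27 neuropeptide and granin genes, none was higher and 2 were lower at an unadjusted p under 0.05, beside 5.82% and 4.56% of all probe sets. The 2 were Chgb (-0.46, adjusted p = 0.388) and Sst (-0.37, adjusted p = 0.457), and Chgb was at -0.04 with the covariate.

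Genes that axon injury is known to induce had mostly small negative differences. Of 27 such regeneration-associated genes 7 had a positive difference, beside 51.6% of all probe sets. At an unadjusted p under 0.05, 2 were higher and 2 lower, beside 5.82% and 4.56% of all probe sets. The median was -0.12, the lowest of the lists, beside 0.01 for all probe sets. It was 0.01 without Spi-21 replicates 1 to 3 and -0.23 with the covariate. Jun, a transcription factor of the injury response, differed by -0.29, Stmn2, a regulator of microtubules in growth cones, by -0.19, Hspb1, a small heat shock protein, by 0.30 and Cd44, a hyaluronan receptor, by 0.20, with adjusted p of 0.437 to 0.482. With the covariate Hspb1 was at -0.05 and Jun at -0.05, and without Spi-21 replicates 5 to 8 Hspb1 was at 0.04. Ngfr, the low-affinity neurotrophin receptor, lay at 7.43 ± 1.44 and 8.26 ± 0.71 (0.82, adjusted p = 0.584), and its difference turned to -0.64 with the covariate and -0.44 without replicates 5 to 8. Of 22 genes of neurotrophic signalling, Il6st, the shared receptor of the interleukin 6 family, differed by -0.48 (adjusted p = 0.376) and Il6r by -0.27 (adjusted p = 0.410).

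Energy metabolism held no called gene. Of 38 genes of glycolysis and the tricarboxylic acid cycle, 29 had a positive difference, beside 51.6% of all probe sets. At an unadjusted p under 0.05, 4 were higher and none lower, beside 5.82% and 4.56% of all probe sets. The median was 0.14 (0.01 without Spi-21 replicates 1 to 3). Ogdh, of the oxoglutarate dehydrogenase complex, differed by 0.30 and Pfkm, the muscle-type phosphofructokinase, by 0.24 (adjusted p = 0.376 and 0.467). Of 68 genes of oxidative phosphorylation 6 were higher and 6 lower at an unadjusted p under 0.05. The counts were 12 higher and 1 lower with the covariate, 14 and 0 without Spi-21 replicates 5 to 8, and 10 and 13 without replicates 1 to 3, and the median of 0.05 was 0.09, 0.08 and -0.07 in these fits. Atp5f1a, the alpha subunit of ATP synthase, differed by 0.61 (adjusted p = 0.264) and Ndufa2, of complex I, by -0.48 (adjusted p = 0.247, and -0.26 with the covariate). The 40 proteasome subunits had a median of 0.08 (0.01 without Spi-21 replicates 1 to 3), the 56 chaperones one of -0.04 (0.07 with the covariate) and the 24 genes of endoplasmic reticulum stress one of 0.03. In the last, Ddit3, the stress factor CHOP, differed by -0.39 and Xbp1 by 0.39 (adjusted p = 0.402 and 0.482), and with the covariate they were at -0.09 and 0.70. Dync1h1, the heavy chain of the retrograde motor dynein, had the smallest p of the 58 genes of the cytoskeleton and its motors (0.55, adjusted p = 0.273).

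Among markers of glia no gene was called. All 10 astrocyte markers had a positive difference, beside 51.6% of all probe sets, with a median of 0.20. Without Spi-21 replicates 1 to 3, 8 of them were positive, with a median of 0.10. S100b, a calcium-binding protein of astrocytes, differed by 0.41 (adjusted p = 0.320) and Gfap by 0.49 (adjusted p = 0.666), and Gfap turned to -0.27 with the covariate and -0.07 without replicates 5 to 8. The mean level over the list ran from 7.86 to 8.64 (median 8.33) in the day-21 animals and from 8.25 to 8.96 (median 8.51) in the day-60 animals. Of 13 oligodendrocyte and myelin markers 11 had a positive difference, with a median of 0.17 that was 0.04 with the covariate and 0.04 without Spi-21 replicates 5 to 8. Olig1, a transcription factor of the oligodendrocyte lineage, differed by 0.69 ± 0.16 (adjusted p = 0.196, and 0.42 with the covariate), Mbp, the myelin basic protein, by 0.56 (adjusted p = 0.388, and 0.23 with the covariate) and Cnp by 0.44 (adjusted p = 0.376, and 0.19 with the covariate), and the list's mean ran from 6.96 to 7.60 and from 7.12 to 7.85 in the 2 groups. Olig2, the sister factor of Olig1, differed by -0.13 (adjusted p = 0.727). The 14 microglia and macrophage markers had a median of 0.04, with 9 positive, and list means of 5.60 to 7.09 and 5.88 to 7.07. Their median was -0.17 with the covariate (4 positive) and -0.15 without Spi-21 replicates 5 to 8 (3 positive). The differences of the 8 interneuron transmitter markers, the 8 endothelial, the 8 Schwann cell and meningeal and the 6 blood cell markers had medians of -0.01, 0.09, -0.09 and 0.01. The part of glial RNA in the differences of single genes was not tested.

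**Figure D5:**
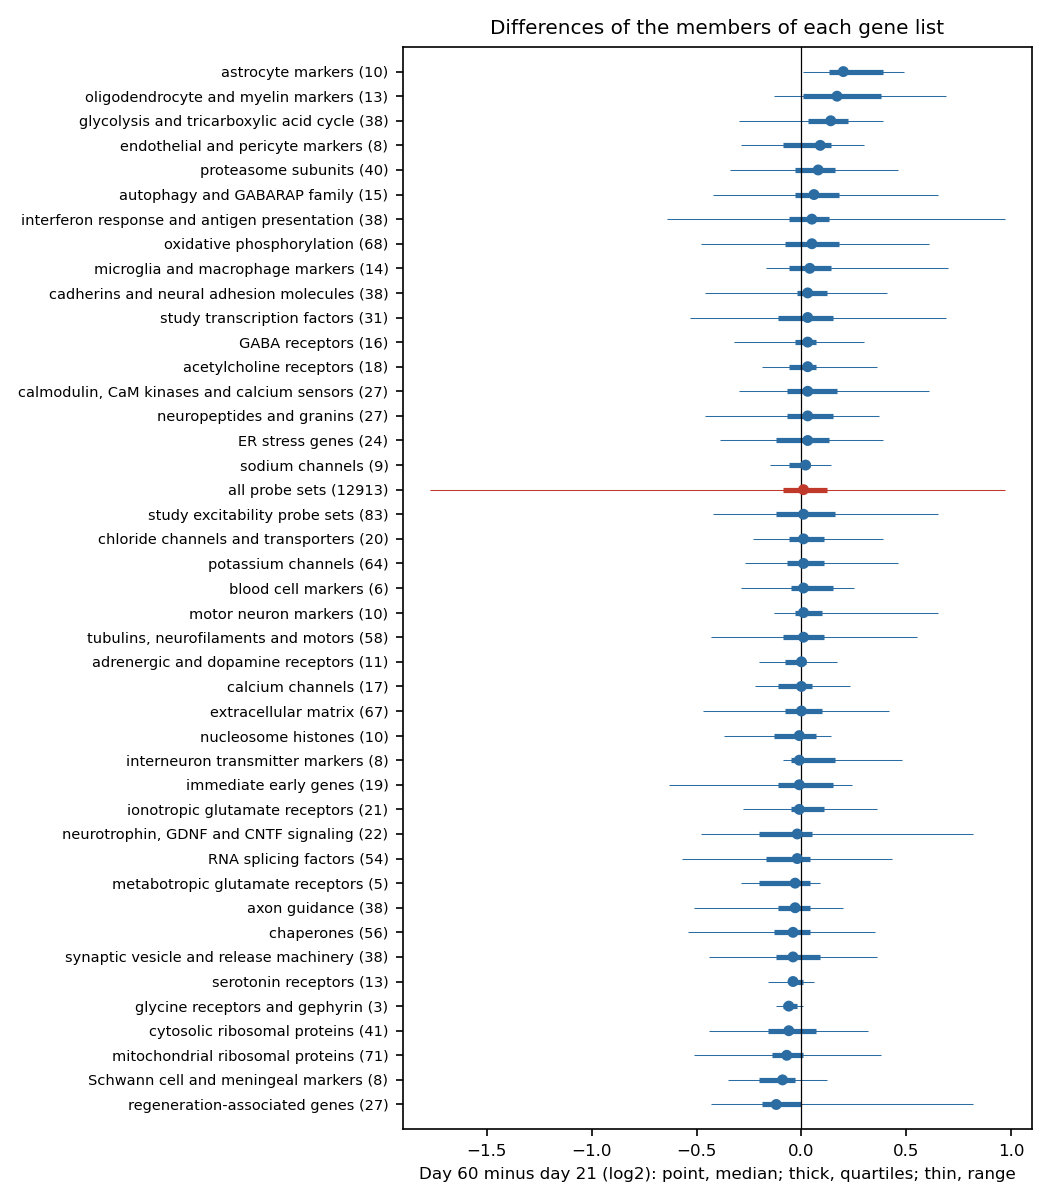
Differences between Spi-60 and Spi-21 (log2) of the members of each gene list, with 1 probe set per gene except in the study's 83 probe sets and the number measured in brackets; points are medians, thick lines quartiles and thin lines the range, and red is all 12913 probe sets. Medians run from -0.12 in the regeneration-associated genes to 0.20 in the astrocyte markers.

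The number of calls was not the same for every choice of arrays and fit. Without Spi-21 replicate 4 it was 11 (0.0852%), 1 higher (0.00774%) and 10 lower (0.0774%). In a fit to all 31 arrays it was 9 (0.0697%), 3 higher (0.0232%) and 6 lower (0.0465%), with Nop58, Arpc5l, Dnajc2, Pla2g6, Zranb1 and Atp6v1g1 lower and Nfyc, Neil1, a DNA repair glycosylase (0.47), and Higd2a (0.43) higher. With the Gapdh covariate it was 4 (0.031%), all higher and without Nop58. Without Spi-21 replicates 1 to 3, whose arrays had the narrowest spread of values, 64 probe sets passed the adjusted test (0.496%), 44 higher (0.341%) and 20 lower (0.155%), with Nop58 among the latter. The higher ones included Igfbp6, an IGF-binding protein (1.15), Hpcal1 (0.91), Atp6v1g2, a proton pump subunit (0.92), Syt3, a synaptotagmin (0.82), Map1a, a microtubule-associated protein (0.59), and Lrp1, an endocytic receptor (0.54). The lower ones included Ank3, ankyrin G of the axon initial segment (-0.92), Lgals3, galectin 3 (-0.85), and Dlgap1, a scaffold of the postsynaptic density (-0.56). The genes of these fits were chosen after their values were seen. The 5 day-21 animals that remain differ from Spi-60 by 1.78 in the Gapdh difference (exact permutation p = 0.00155). Their values, 1.13 to 2.76, do not overlap with those of Spi-60, 2.99 to 3.97. With that difference as a covariate in the same fit no probe set was called by limma (565 at an unadjusted p under 0.05). That fit can hardly separate the day from the covariate, so that its lack of calls decides nothing. Without Spi-21 replicates 5 to 8, where the Gapdh difference of the groups was 0.37 (exact permutation p = 0.117), none was called either, with 1856 at an unadjusted p under 0.05.

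The animals differed from one another far more in a few genes than the time points did. Reg3b, a secreted lectin induced by injury, had the largest difference of all probe sets, -1.77, but ran from 6.34 over 9.26 to 11.23 in Spi-21 and from 5.05 over 7.29 to 11.54 in Spi-60, with an interval of -3.52 to -0.03 (adjusted p = 0.481). It also had the largest SD among the probe sets with 1 symbol in each group (1.72 and 2.17). The immediate early genes Fos (SD of 1.59 and 1.15) and Egr1 (1.58 and 0.73) and the arginase Arg1 (1.58 and 1.12) ranked among the 10 most variable at day 21, and 5 probe sets were among the 10 most variable of both groups. Fos differed by 0.05 between the times with an interval of -1.19 to 1.29, and Arg1 by -0.26 with one of -1.48 to 0.97. The interval of Fos thus holds changes of more than 2-fold in both directions. These genes, too, were chosen after their values were seen.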

How the data were processed

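Tail motor neurons of 16 rats (8 Spi-21, 8 Spi-60) were profiled on Affymetrix rat expression arrays, 1 animal each. The deposited values are log2 RMA summaries, which the authors background compensated, normalized and limited to 12919 probe sets in Ensembl; the submitters' processing notes name RMA without a version. The 6 control sets were left out. Of 12913 probe sets, 11880 carry 1 symbol of the platform annotation, 320 several and 713 none (9769 genes). No raw file was used here, and no depth applies: the number of arrays limits the precision.

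Groups were compared with limma 3.58.1 (R 4.3.3; lmFit and eBayes, two-sided, no covariate) with Benjamini-Hochberg adjustment over all probe sets, and single values per array by exact permutation over 12870 splits (SciPy 1.17.1; smallest two-sided p 0.000155). The fit was tested on simulated data with independent normal noise and the same SD in both groups. That setting leaves out the larger spread of Spi-21 and the split of its arrays, so that it does not speak to them. Lists use 1 probe set per gene, that with the highest mean, and carry no test. Named were every called probe set, among those with 1 symbol and an unadjusted p under 0.01 the 12 largest differences in each direction, up to 12 called when 1 array was left out, 2 to 4 members of each list with the smallest p, and markers. Members and lists were chosen with earlier results of these data known. Alternatives were all 31 arrays, a replicate block, quantile normalization, a mean of at least 5, trended robust moderation, array weights, the Gapdh covariate, q-values with lambda 0.5, and leaving out arrays; fits without Spi-21 replicates 5 to 8, and with the covariate without replicates 1 to 3, were chosen after seeing the data.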

Additional observations from a re-analysis of the deposited data

Results flagged for a closer look

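In 2 of the 64 sets of 8 arrays examined for a single outlying animal (29 named probe sets and 3 array measures in each group), 1 animal stood farther from the rest than Dixon's limit for 8 values allows; chance flags about 1 in 20. Aarsd1 lay at 9.43 in Spi-21 replicate 4, where the next lowest day-21 animal was at 10.20. Without replicate 4 its difference was -0.85 with an adjusted limma p of 0.00577. That animal was singled out by its value, and with all animals the adjusted limma p was 0.196. The second probe set of Cbln1 lay at 3.93 in Spi-21 replicate 7, where the next lowest was at 5.59, and its difference ran from 0.50 to 0.84 when each array was left out in turn.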

How the results depend on the processing

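The number of called probe sets, 1 as reported, was 1 with a mean of at least 5 and with array weights, 2 with further quantile normalization and with q-values (Nop58 and Arpc5l), 4 with the Gapdh covariate, 9 in the fit to all 31 arrays, 64 without Spi-21 replicates 1 to 3, and 0 with trended robust moderation (1307 at an unadjusted p under 0.05), without Spi-21 replicates 5 to 8 and with the covariate without replicates 1 to 3. Leaving out each array in turn gave 0 to 11, where 11 came without Spi-21 replicate 4 and 0 in the 15 others. With the replicate number as a block 0 were called (1327 at an unadjusted p under 0.05). The labels do not say whether same-numbered animals share anything beyond the number. Their deviations from the group means correlated at -0.18 to 0.21, over 0.1 in 2 of 8 pairs. The 4 called with the covariate, Ano3 (1.31), Tceal1 (1.33), Mettl5 (0.99) and Ndfip2 (0.90), named after their values were seen, differed by 0.19 to 0.35 without it; why was not tested. Arrays limit the precision, and Spi-21 most.

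The Gapdh difference was 0.37 without Spi-21 replicates 5 to 8 and 1.04 to 1.38 without single arrays of the 2 groups. The interquartile range of the arrays differed by 0.04 (exact permutation p = 0.180), by -0.00319 without replicates 1 to 3 and by 0.0924 without replicates 5 to 8. The mean correlation within Spi-21 was 0.961 without replicates 1 to 3. List medians moved beyond the spread of the list over animals in 13 cases and not in 827. With the covariate they were -0.07 for calmodulin and calcium sensors, -0.11 for synaptic release, 0.09 for mitochondrial ribosomal proteins, 0.07 for chaperones, -0.09 for extracellular matrix, -0.11 for neurotrophic signalling, -0.11 for histones and -0.18 for Schwann cell and meningeal markers. Without replicates 5 to 8 they were -0.09 for synaptic release, 0.11 for mitochondrial ribosomal proteins, -0.04 for cadherins and -0.10 for histones, and without replicates 1 to 3 -0.16 for metabotropic glutamate receptors.

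With the covariate and without replicates 1 to 3, 10 of 29 named probe sets turned direction, to 0.15 (Hypk), 0.24 (Aarsd1), 0.11 (Fbxo9), 0.27 (Thoc2), 0.15 (Atp6v1g1), 0.02 (Mindy3), -0.18 (Igfbp7), -0.12 (Ywhaz), -0.04 (Slc18a3) and -0.26 (Gabarap), each with an adjusted p of 1.00. In this fit the Gapdh differences of Spi-21 and Spi-60 did not overlap, so that it can hardly separate the day from the covariate. The cause was not tested.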

Other observations

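Some genes with lower values at day 60 stood nearer to the day-60 than to the day-21 level in the arrays of the first week as well. Zeb1 had means of 9.54 ± 0.16 (SD, n = 4) in Control, 8.49 at day 2 (n = 6), 8.66 at day 7 (n = 5), 9.37 ± 0.20 (n = 8) at day 21 and 8.84 ± 0.13 (n = 8) at day 60. In the same order of groups the means were 7.05, 6.19, 6.13, 6.81 and 6.15 for Fbxo9, 6.42, 5.55, 5.43, 6.24 and 5.66 for Zranb1, and 6.15, 5.51, 5.77, 6.23 and 5.61 for Atp6v1g1. Each of these series is of a single probe set. The other sets of Fbxo9 and Zranb1, given above, did not repeat the difference between day 21 and day 60. Of the 17 leading probe sets that were lower at day 60, the mean of the day-2 and day-7 animals was nearer to Spi-60 than to Spi-21 in 7. Nop58 was at 9.37 ± 0.25 in Control, 9.84 in Spi-2 and 9.72 in Spi-7, so that Spi-60 (8.81 ± 0.14) had the lowest mean of the 5 groups. The 2 late groups come from another study than the rest, so that study and time cannot be told apart in these values.

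Csf1, a growth factor of microglia and macrophages, Ptk2, the focal adhesion kinase, and Rps6ka4, a kinase that acts on histone H3, were higher in every day-60 than in every day-21 animal, by 0.25, 0.47 and 0.43 (limma adjusted p = 0.275, 0.163 and 0.233). With Nfyc they were the 4 probe sets that did so, while 6 were lower without overlap, together 0.0774% of all probe sets. These 3 genes were chosen after their values were seen.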
